A study of Mus musculus with 53 samples.

Results

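The nuclear genes of the respiratory chain and of the ATP synthase were followed through an IL-4 time course in mouse macrophages. Members were chosen by gene symbol alone, as the names that start with Ndufa, Ndufb, Ndufc, Ndufs or Ndufv and a number, the names Sdha to Sdhd, and the names that start with Uqcr, Cox4 to Cox8 or Atp5. This gave 84 of the 23847 loci in the expression tables, and no measured value entered the choice. By complex there were 35 genes of complex I, 4 of complex II, 8 of complex III, 20 of complex IV and 15 of complex V. The symbols of 2 further members, Atp5s and Atp5sl, belong to a coupling factor and an assembly protein rather than to subunits, so both were kept apart from complex V. Ndufa4, whose protein sits in complex IV despite its name, was counted there. Subunits whose symbols do not match these names were left out, so the sets need not cover a whole complex.

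Bone marrow-derived macrophages (BMDMs) came from WT mice and from Stat6-/- mice, a full-body knockout, all on the C57BL/6 background and 8 to 12 weeks of age. Marrow cells of both genotypes were differentiated for 6 days with supernatant of L929 cells, the source of the growth factor M-CSF, and then received 20 ng/ml IL-4 or were left as controls. Control and IL-4 samples were taken at 1, 3, 6 and 24 h, and a further control at 0 h. The 53 samples formed 18 groups of 4 WT samples (3 for WT with 24 h of IL-4) or 2 Stat6-/- samples.

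Polyadenylated RNA was sequenced, and levels are given as FPKM, fragments scaled to transcript length and to the mapped total. Per sample the FPKM total ran from 385889 to 464915, relative depth ran from 0.707 to 1.553 of the median sample, and 10017 to 10380 loci per sample reached 1 FPKM. Stat6 itself was at 58.7 to 90.6 FPKM in the 35 WT samples and at 14.3 to 24.0 FPKM in the 18 Stat6-/- samples, without overlap. The macrophage genes Cd68 (779.9 to 1678 FPKM), Csf1r (609.8 to 1081 FPKM) and Emr1 (468 to 1840.2 FPKM) were abundant in every sample. T cell, B cell, stromal and dendritic cell markers stayed below 1 FPKM throughout. Of the granulocyte markers, S100a8 ran from 80.7 to 478 FPKM. Replicates are separate samples by their labels, and p-values measure the spread between these samples.

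Electrons from NADH and succinate enter the inner mitochondrial membrane at complexes I and II, pass through complex III and cytochrome c, and reach oxygen at complex IV. Complexes I, III and IV pump protons as they work, and the ATP synthase (complex V) lets them flow back through its c-ring to make ATP in its F1 head. Most subunits are nuclear-encoded, and several exist as isoforms from different genes. IL-4, which acts through the transcription factor STAT6, drives macrophages to alternative polarization, a state known for its reliance on oxidative metabolism. The 13 subunits encoded by mitochondrial DNA are not analysed here.

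IL-4 raised most of these genes in WT BMDMs at 6 and 24 h by small amounts, and no change passed the test in Stat6-/- BMDMs. Of the 79 members tested (at least 1 FPKM in at least 1 sample), 43 rose and 1 fell at 6 h, and 50 rose and 4 fell at 24 h, at an adjusted p under 0.05 in limma. Over all 11146 loci tested, 22% rose and 19.2% fell at 6 h, and 23.4% rose and 31.6% fell at 24 h. The median log2 change of the members, on the log2(FPKM + 1) scale used for every change below, was 0.29 at 6 h and 0.33 at 24 h, against -0.000218 and -0.07 over all loci. An analysis of variance with Tukey's adjustment called 24 increases at 6 h and 31 at 24 h. Only Atp5g1 and Cox7b rose at least 2-fold at 24 h over the controls of the same time, a size that 3.91% of all loci reached upward.

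The earlier times differed. At 3 h, 8 members rose and 0 fell, beside 16.4% of all loci that rose and 12.5% that fell, and the members' median change was 0.10. The 8 increases were 5 without WT replicate 1, 4 without WT replicate 2, 5 without WT replicate 4 and 11 without either Stat6-/- replicate. A fit of only the groups compared gave 14 increases and 2 decreases. At 1 h, 0 members passed in limma in either direction, while 5.67% of all loci rose and 3.72% fell. At an unadjusted p under 0.05, 4 members were lower at 1 h (Ndufb8, Sdhb, Sdhc and Sdhd), 0 were called by an analysis of variance with Tukey's adjustment, and the median change was -0.09.

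**Figure D1:**
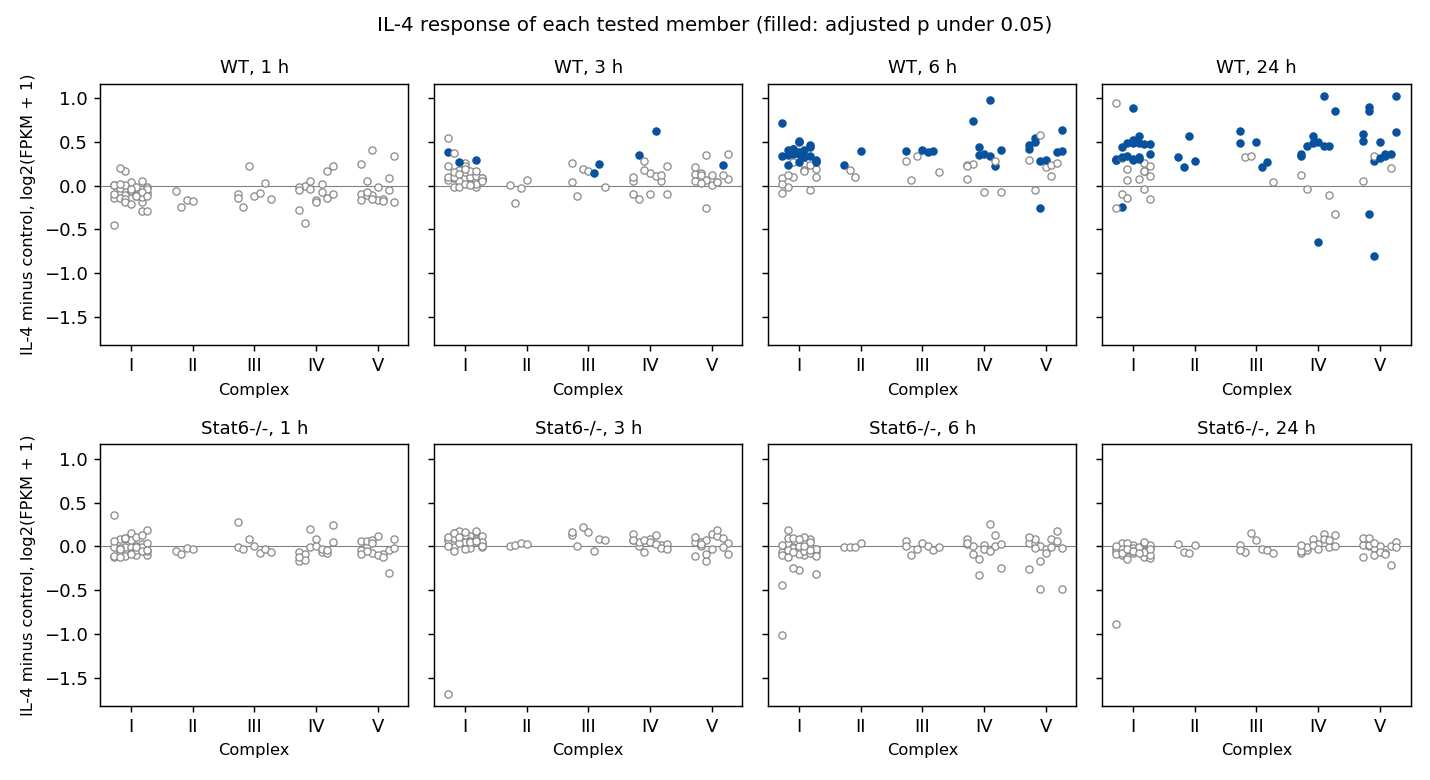
Each point is 1 of the 79 tested members, placed by complex on the x axis (Atp5s and Atp5sl stand with complex V) and by its IL-4 minus control difference in log2(FPKM + 1) on the y axis. Filled points passed at an adjusted p under 0.05. They number 0, 8, 44 and 54 in WT at 1, 3, 6 and 24 h and 0 in each Stat6-/- panel.

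The lists of members that rose at the late times overlapped. Of the 43 members that rose at 6 h and the 50 that rose at 24 h, 36 were shared, 7 were in the 6 h list alone and 14 in the 24 h list alone. All 8 members that rose at 3 h also rose at 6 h, and 5 of them at 24 h. In all, 57 members rose at 6 or 24 h, and 18 passed at no time in WT. The matching overlap over all loci was not computed, so these counts only describe the lists.

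The 300 bases around the annotated start site (250 before, 50 after) are shown for a few members, because subunit genes that move together are known to share promoter elements. Atp5g1 and Cox7b are the largest increases and held none of the motifs searched. The others were picked by response, as the largest 24 h increase in WT that passed and held a given motif (NRF1, ETS, YY1 or ERR). RefSeq annotation on GRCm38.p6 (the mm10 assembly) gave the sequences. They are written 5′ to 3′ on the gene's strand with the motif in capitals.
Atp5g1 (chr11:96075582-96075881, minus strand): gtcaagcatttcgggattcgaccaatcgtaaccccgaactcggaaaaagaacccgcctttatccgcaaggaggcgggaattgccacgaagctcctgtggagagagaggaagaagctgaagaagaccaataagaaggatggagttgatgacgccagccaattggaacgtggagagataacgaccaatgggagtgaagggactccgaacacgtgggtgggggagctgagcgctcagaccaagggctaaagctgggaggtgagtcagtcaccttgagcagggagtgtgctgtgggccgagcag
Cox7b (chrX:106015450-106015749, plus strand): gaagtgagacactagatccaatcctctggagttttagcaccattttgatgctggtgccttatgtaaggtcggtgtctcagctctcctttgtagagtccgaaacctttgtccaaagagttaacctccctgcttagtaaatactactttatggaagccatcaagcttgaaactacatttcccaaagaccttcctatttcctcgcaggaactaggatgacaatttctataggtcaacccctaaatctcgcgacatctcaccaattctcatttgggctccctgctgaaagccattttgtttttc
Cox8a (chr19:7217567-7217866, minus strand, ETS): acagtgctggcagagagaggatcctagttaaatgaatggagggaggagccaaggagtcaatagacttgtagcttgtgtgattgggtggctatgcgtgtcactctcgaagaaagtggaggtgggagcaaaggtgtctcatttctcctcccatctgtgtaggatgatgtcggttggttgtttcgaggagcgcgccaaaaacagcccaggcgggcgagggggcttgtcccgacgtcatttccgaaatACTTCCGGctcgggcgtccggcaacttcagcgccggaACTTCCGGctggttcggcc
Atp5g3 (chr2:73911277-73911576, minus strand, ERR): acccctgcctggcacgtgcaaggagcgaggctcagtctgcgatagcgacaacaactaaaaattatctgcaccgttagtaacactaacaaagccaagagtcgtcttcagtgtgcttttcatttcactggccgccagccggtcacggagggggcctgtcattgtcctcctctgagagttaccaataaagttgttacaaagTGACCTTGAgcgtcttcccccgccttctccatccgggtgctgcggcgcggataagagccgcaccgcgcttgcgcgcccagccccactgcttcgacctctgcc
Atp5l (chr9:44920693-44920992, minus strand, NRF1 and ETS): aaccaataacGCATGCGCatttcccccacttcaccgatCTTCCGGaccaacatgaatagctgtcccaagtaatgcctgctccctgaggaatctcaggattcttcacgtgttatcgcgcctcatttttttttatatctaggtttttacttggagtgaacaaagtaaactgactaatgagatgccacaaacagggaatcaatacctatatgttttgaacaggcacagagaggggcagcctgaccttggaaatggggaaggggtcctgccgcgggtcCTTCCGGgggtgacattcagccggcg
Ndufb8 (chr19:44555393-44555692, minus strand, YY1): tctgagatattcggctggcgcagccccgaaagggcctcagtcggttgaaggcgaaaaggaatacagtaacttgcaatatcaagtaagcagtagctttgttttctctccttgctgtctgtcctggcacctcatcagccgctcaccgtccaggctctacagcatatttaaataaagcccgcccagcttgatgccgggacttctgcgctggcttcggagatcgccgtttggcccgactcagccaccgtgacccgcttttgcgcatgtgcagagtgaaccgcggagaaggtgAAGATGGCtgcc

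Motifs were searched on both strands in the first listed sequence of each of 69 members and in all 32851 promoters of the same table. Members on chr18 were left out of the 69, while the 32851 kept chr18 and every listed promoter of a gene. The NRF1 core GCATGCGC was present in 10 members (14.5%, against 2.71% of all promoters), the ETS core CCGGAAG in 15 (21.7% against 8.86%) and the YY1 motif AAGATGGC in 10 (14.5% against 2.75%). The longer ETS form CCGGAAGT, which overlaps the core, was present in 5 members (7.25% against 3.89%), and the ERR motif TCAAGGTCA in 2, Sdhd and Atp5g3 (2.9% against 0.423%). The STAT6 spacing TTCNNNNGAA was present in 4 (5.8% against 6.95%) and TTCNNNGAA, the spacing of other STATs, in 5 (7.25% against 8.3%). In Atp5l the NRF1 core lay 240 to 233 bases before the start site, in Atp5g3 the ERR motif lay 52 to 44 bases before it, and in Ndufb8 the YY1 motif lay at bases 39 to 46 after it. By response at 24 h the counts were small. The NRF1 core was in 7 of 42 that rose and 3 of 25 others, the ETS core in 10 and 5, and its longer form in 1 and 4. The YY1 motif was in 6 and 4, the ERR motif in 2 and 0, the STAT6 spacing in 3 and 1, and TTCNNNGAA in 4 and 1. These counts describe letters in 1 window and are no sign of binding.

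The summed FPKM of a complex gives the RNA level of its listed genes in each sample, and abundant genes weigh most. It does not measure the assembled complex. At 24 h the sum over complex V was 2697 ± 115 FPKM (SD, n = 3) with IL-4 and 1871 ± 58.9 FPKM (n = 4) in controls, a log2 ratio of 0.53 and the largest of the sums. By the median FPKM of each complex in place of the sum, complex IV (0.767) stood above complex V (0.355). The complex IV list includes 8 isoforms restricted to other tissues, low or at 0, which shift its median. Over its 12 other members the median of the single log2 changes was 0.45. Complex IV was at 2650 ± 124 against 2102 ± 154 FPKM, complex I at 2500 ± 72.8 against 2147 ± 127 FPKM, complex III at 827 ± 39.7 against 672 ± 38.9 FPKM, and complex II at 507 ± 9.04 against 399 ± 17.3 FPKM. In each of these sums the lowest IL-4 sample lay above the highest control sample.

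All 5 complexes together summed to 9181 ± 336 FPKM with IL-4 at 24 h and to 7192 ± 383 FPKM in controls, which was 2.53% and 2.05% of the FPKM outside the 10 most abundant loci. At 6 h the values were 8660 ± 918 against 7115 ± 768 FPKM (n = 4 each), and the groups were wider. The lowest 6 h control sample was at 6011 FPKM and the highest 6 h IL-4 sample at 9969 FPKM. In Stat6-/- BMDMs the 24 h sums were 7032 ± 1011 with IL-4 and 7193 ± 558 FPKM without (n = 2 each), and overlapped. Bulk RNA cannot tell more RNA per cell from more cells of a kind that is rich in it.

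**Figure D2:**
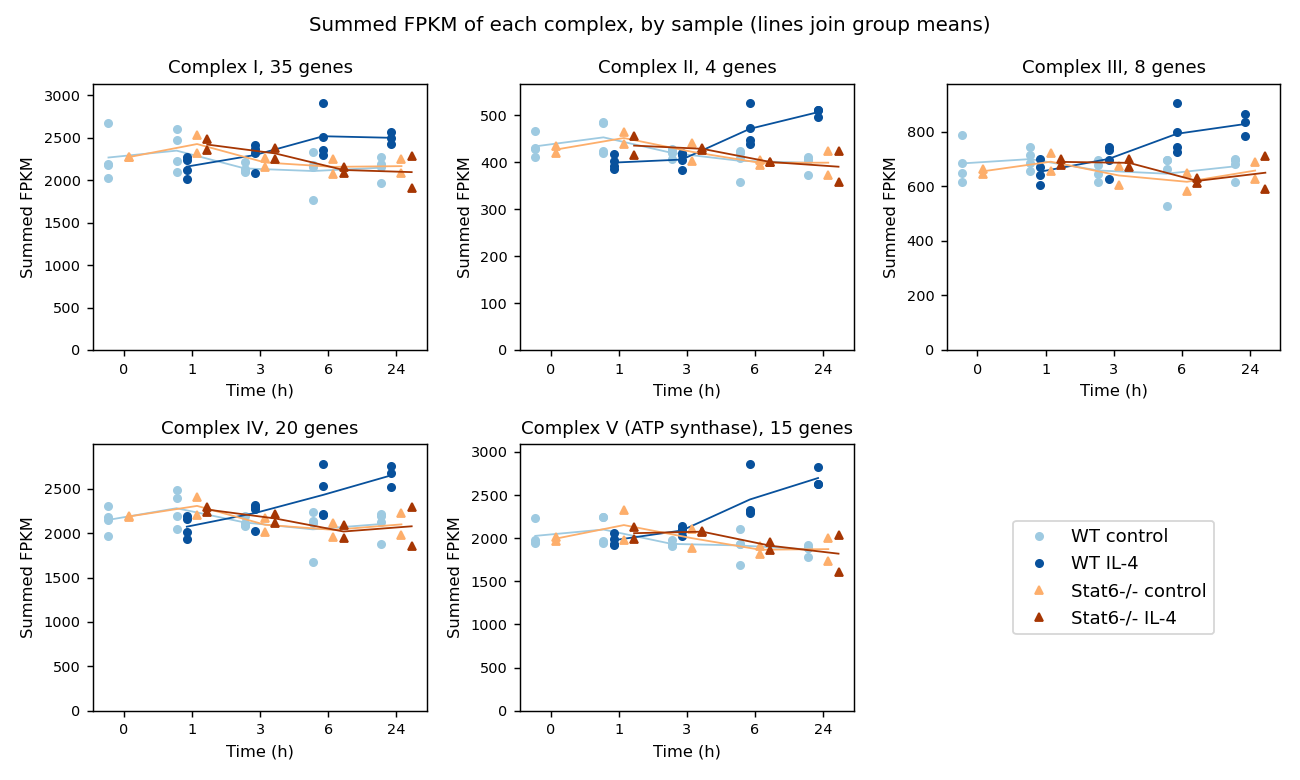
Summed FPKM of the genes of each complex (y axis, linear from 0) against time in h (x axis, evenly spaced). Each point is 1 sample, blue for WT and orange for Stat6-/-, pale for control and dark for IL-4, and lines join group means. At 24 h the WT IL-4 points of complex V lie at 2628 to 2830 FPKM and the WT control points at 1787 to 1925 FPKM.

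Complex I takes electrons from NADH. Its members here split into 7 core subunits, which hold the flavin and the iron-sulfur clusters, and 28 accessory subunits around them. At 24 h, 5 core subunits rose, with a median change of 0.34, and 14 accessory subunits rose and 1 fell. At 6 h the counts were 5 core and 15 accessory subunits, with 0 lower. Ndufs1, the largest core subunit, read 32.5, 33.4 and 34.6 FPKM with 24 h of IL-4 and 22.2, 23.6, 24.0 and 24.4 FPKM in controls. These groups did not overlap, and the change was 0.49 ± 0.11 (SE, adjusted p = 0.00017). Ndufv1, which carries the flavin, rose by 0.30 at 24 h (adjusted p = 0.0335), a call lost on leaving out WT replicate 2, 3 or 4.

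Ndufa12, an accessory subunit of the peripheral arm on chr10:94199009-94220948 (mm10), had the largest increase of complex I among those that passed at 24 h. It read 19.4, 21.4 and 18.5 FPKM with IL-4 and 11.9, 12.3, 8.34 and 8.89 FPKM in controls, without overlap. The change was 0.88 ± 0.19 (SE, adjusted p = 0.00016), and 26.2% of its transcript sequence recurs elsewhere in the annotated transcripts. Ndufb9, an accessory subunit of the membrane arm, was among the earliest, with changes of 0.38 at 3 h, 0.71 at 6 h and 0.30 at 24 h, all of which passed. At 6 h it read 149, 149, 160 and 169 FPKM with IL-4 and 81.4, 94.1, 99.1 and 108 FPKM in controls. Ndufb3, another membrane-arm subunit, was the 1 subunit of complex I that fell, from 70.8, 72.6, 76.1 and 71.6 FPKM to 59.8, 60.6 and 63.9 FPKM at 24 h (-0.24 ± 0.07, adjusted p = 0.00619).

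Some complex I genes gave no usable answer. Ndufs5 lay below 0.001 FPKM in 44 of 53 samples and reached at most 1.998 FPKM. A separate entry, BC002163 (chr4:123712710-123718161), covers 99.5% of the Ndufs5 locus. BC002163 was at 10.4 to 20.9 FPKM, with a change of 0.37 at 24 h (adjusted p = 0.0287 in limma). How the reads were divided between the 2 entries was not tested. Ndufb2 split into low and high samples within groups, with 28.3, 29.4 and 8.91 FPKM in WT with 24 h of IL-4 and 26.7, 6.00, 7.04 and 7.57 FPKM in controls, and its change of 0.94 ± 0.56 did not pass (adjusted p = 0.151). Ndufa2, the most abundant gene of the complex at a mean of 181.2 FPKM, changed by -0.04 at 24 h (95% interval -0.32 to 0.25).

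All 4 genes of complex II, the succinate dehydrogenase of the citric acid cycle, rose at 24 h and passed. Sdhc, a membrane anchor, read 146, 136 and 143 FPKM with IL-4 and 85.3, 91.2, 102 and 102 FPKM in controls, a change of 0.57 ± 0.09 (SE, adjusted p = 1.6e-06). Sdha, the flavoprotein that oxidises succinate, read 87.6, 85.0 and 90.6 FPKM against 69.5, 66.7, 70.5 and 72.1 FPKM, a change of 0.33 ± 0.06 (adjusted p = 5.48e-06). Sdhd, the other anchor, rose by 0.28, and Sdhb, the iron-sulfur subunit, by 0.22 with an adjusted p of 0.049 that was lost on leaving out WT replicate 2, 3 or 4. At 6 h the picture was partial, since Sdha (0.23) and Sdhd (0.40) passed while Sdhb and Sdhc (0.10) did not.

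Complex III passes electrons to cytochrome c. Of its 8 genes in this list, 5 rose at 24 h and 4 at 6 h. Uqcrc1, a core protein, read 110, 113 and 116 FPKM with 24 h of IL-4 and 84.8, 68.6, 83.0 and 82.6 FPKM in controls, a change of 0.50 ± 0.12 (SE, adjusted p = 0.00067). Uqcrfs1, the Rieske iron-sulfur protein, was among the early genes, with 0.24 at 3 h, 0.39 at 6 h and 0.27 at 24 h, all of which passed. Uqcrh, the hinge protein and the most abundant gene of the complex at a mean of 218.7 FPKM, changed by 0.04 at 24 h (95% interval -0.19 to 0.26). Uqcrb, the lowest at a mean of 32.2 FPKM, did not pass at any time.

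Complex IV reduces oxygen, and its small nuclear-encoded subunits surround a core made by the mitochondrial genome. Of 15 tested genes, 10 rose and 1 fell at 24 h, and 8 rose at 6 h. Cox7b, a small structural subunit (chrX:106015700-106022450), read 80.4, 98.8 and 91.2 FPKM with 24 h of IL-4 and 42.5, 42.0, 42.5 and 47.3 FPKM in controls. Its change of 1.03 ± 0.11 (SE, adjusted p = 7.83e-10), 2.07-fold in mean FPKM, was among the largest of all members. Cox8a (chr19:7215158-7217616) read 250, 313 and 324 FPKM against 181, 151, 158 and 162 FPKM, a change of 0.85 ± 0.13 (adjusted p = 6.07e-07).

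Cox5a, a matrix-side subunit (chr9:57521232-57532426), had its largest change at 6 h. It changed by 0.35 at 3 h, 0.74 ± 0.08 (SE, adjusted p = 1.96e-10) at 6 h and 0.45 at 24 h. Its 24 h response minus its 6 h response was -0.29 and did not pass in limma (adjusted p = 0.0515). The 6 h samples read 212, 210, 241 and 257 FPKM with IL-4 and 126, 136, 138 and 147 FPKM without, and did not overlap. By contrast Cox4i1, the most abundant of all members at a mean of 459.8 FPKM, read 495, 501 and 532 FPKM with 24 h of IL-4 and 511, 373, 507 and 490 FPKM in controls, and the groups overlapped. Its change of 0.13 did not pass (95% interval -0.19 to 0.44).

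Cox7a2l moved the other way. Its mRNA (chr17:83501917-83514333) fell to 156, 136 and 136 FPKM at 24 h from 252, 219, 223 and 201 FPKM in controls. This was a change of -0.65 ± 0.11 (SE, adjusted p = 9.09e-06), and at 6 h the change was -0.08 and did not pass. In the 24 h samples of Stat6-/- BMDMs it read 184 and 235 FPKM with IL-4 and 174 and 260 FPKM without.

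**Figure D3:**
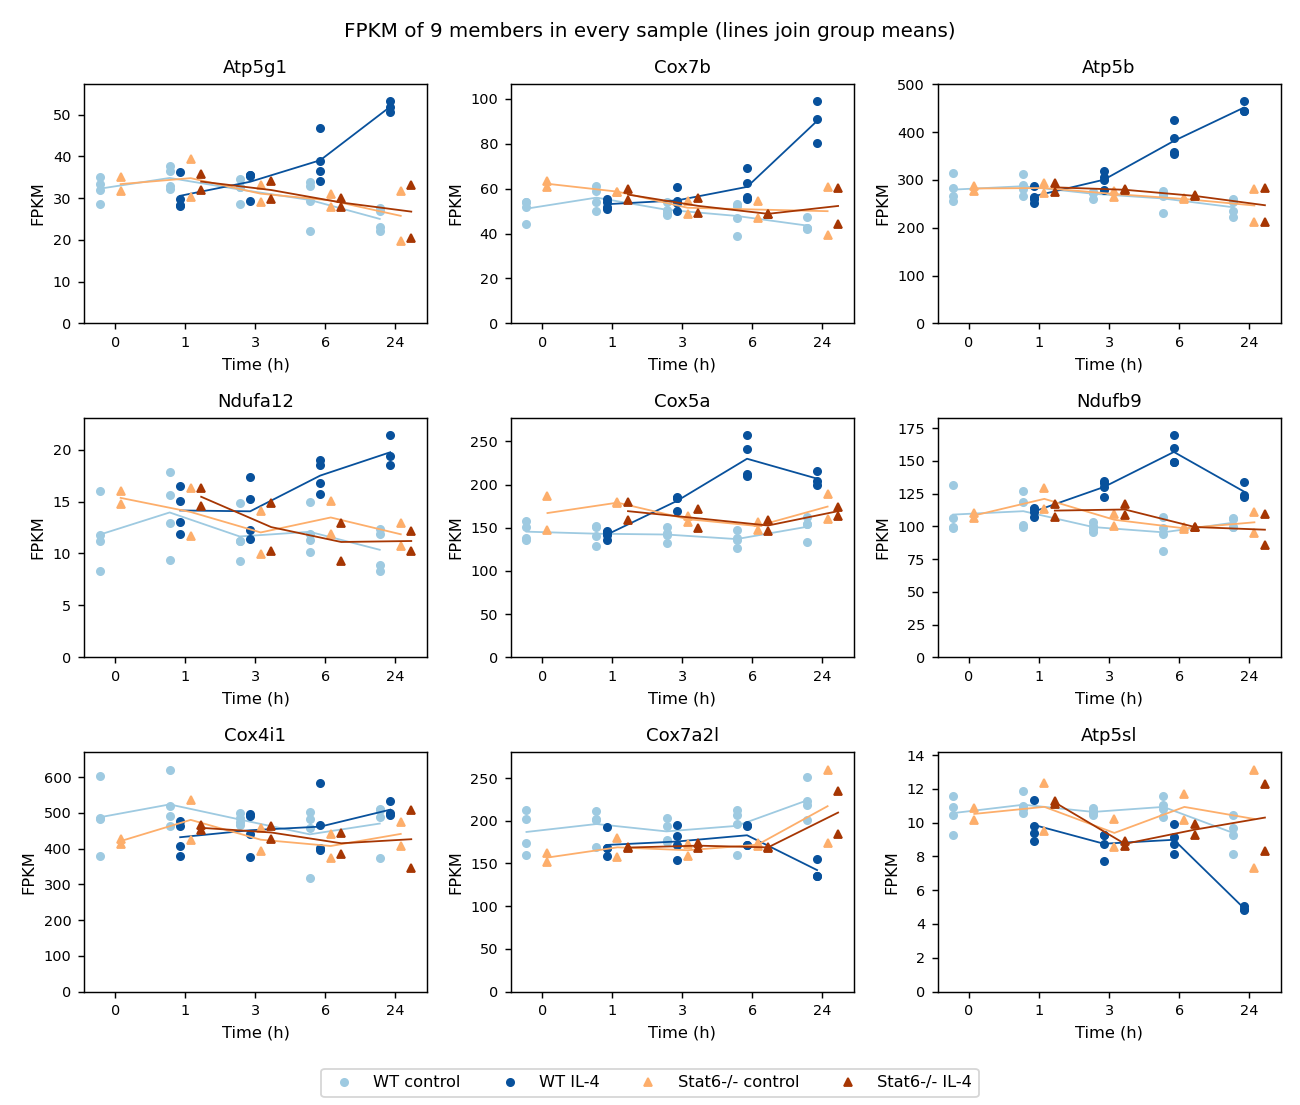
FPKM of 9 members (y axis, linear from 0) against time in h (x axis, evenly spaced). Each point is 1 sample, blue for WT and orange for Stat6-/-, pale for control and dark for IL-4, and lines join group means. Atp5g1, Cox7b and Atp5b are highest in WT with 24 h of IL-4, Cox5a and Ndufb9 in WT with 6 h of IL-4, and Cox7a2l and Atp5sl are lowest in WT with 24 h of IL-4.

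The ATP synthase had the largest summed change, and all 5 genes of its F1 head rose at 24 h, with a median change of 0.49. Atp5b, the catalytic beta subunit (chr10:128083307-128090388), read 445, 445 and 465 FPKM with IL-4 and 236, 222, 255 and 259 FPKM in controls. The groups lay far apart, with a change of 0.89 ± 0.09 (SE, adjusted p = 6.88e-11) and a fold of 1.86, and at 6 h it already stood at 0.55. Atp5a1, the alpha subunit, rose by 0.59 at 24 h (adjusted p = 9.8e-05). Atp5e, the epsilon subunit and the most abundant gene of the complex at a mean of 329.6 FPKM, rose by 0.36 with an adjusted p of 0.0363 that was lost on leaving out WT replicate 2, 3 or 4.

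Atp5g1, Atp5g2 and Atp5g3 encode the same mature c-ring subunit with different import sequences, and they did not move alike. Atp5g1 (chr11:96072793-96075694) read 53.2, 51.9 and 50.6 FPKM with 24 h of IL-4 and 22.2, 23.1, 27.7 and 27.0 FPKM in controls, a change of 1.03 ± 0.14 (SE, adjusted p = 1.14e-07) and the largest fold of all members together with Cox7b. Atp5g3 (chr2:73908450-73911294), the most abundant of the family, read 379, 349 and 406 FPKM against 219, 188, 203 and 225 FPKM, a change of 0.85 ± 0.09 (adjusted p = 9.77e-10). Atp5g2 read 63.0, 63.0 and 68.2 FPKM inside a control range of 49.1 to 81.8 FPKM and did not pass (0.05, 95% interval -0.26 to 0.36). The differences between these genes' changes were not tested. In the peripheral stalk 2 of 4 genes rose at 24 h, and 3 of 3 other membrane subunits did. Atp5h, in the stalk, was the lowest subunit gene of the complex and did not pass.

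Both members kept apart from complex V fell. Atp5sl (chr7:25619493-25625550) read 4.84, 4.91 and 5.05 FPKM with 24 h of IL-4 and 10.5, 9.27, 9.66 and 8.13 FPKM in controls, a change of -0.80 ± 0.11 (SE, adjusted p = 2.22e-07). Its 6 h change of -0.26 was the 1 decrease called at that time and was lost on leaving out any WT replicate. Atp5s was lower at 24 h by a change of -0.32 (adjusted p = 0.0116), which did not pass on leaving out WT replicate 2.

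Isoform families showed which paralog these macrophages use. Cox4i1 was at 317 to 622 FPKM and Cox4i2, the lung isoform, at 0 to 0.276 FPKM over all 53 samples. Cox6a1, Cox6b1, Cox7a2 and Cox8a stood far above their heart, muscle or testis partners. Cox6a2 ran from 0.604 FPKM and Cox6b2 from 0.524 FPKM, with medians of 1.65 and 1.61 FPKM, Cox7a1 had a median of 6.17 FPKM, and Cox7b2, Cox8b and Cox8c were listed at 0 in every sample. Ndufa4l2 stayed at or below 0.0431 FPKM, while Ndufa4 had a median of 244 FPKM.

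Low as it was, Cox6a2 changed early. It read 2.84, 3.70, 4.09 and 2.98 FPKM with 6 h of IL-4 and 1.33, 1.21, 1.06 and 1.33 FPKM in controls, a change of 0.97 ± 0.14 (SE, adjusted p = 4e-07) and a 2.76-fold difference in mean FPKM. Its locus shares 7.4% of its length with the entry of Itgad, an integrin gene, which changed by 0.32 at 6 h and by 2.46 at 24 h, when Cox6a2 had a smaller change of 0.45 that was lost on leaving out WT replicate 2 or 3. The part of shared reads in the Cox6a2 values was not tested.

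**Figure D4:**
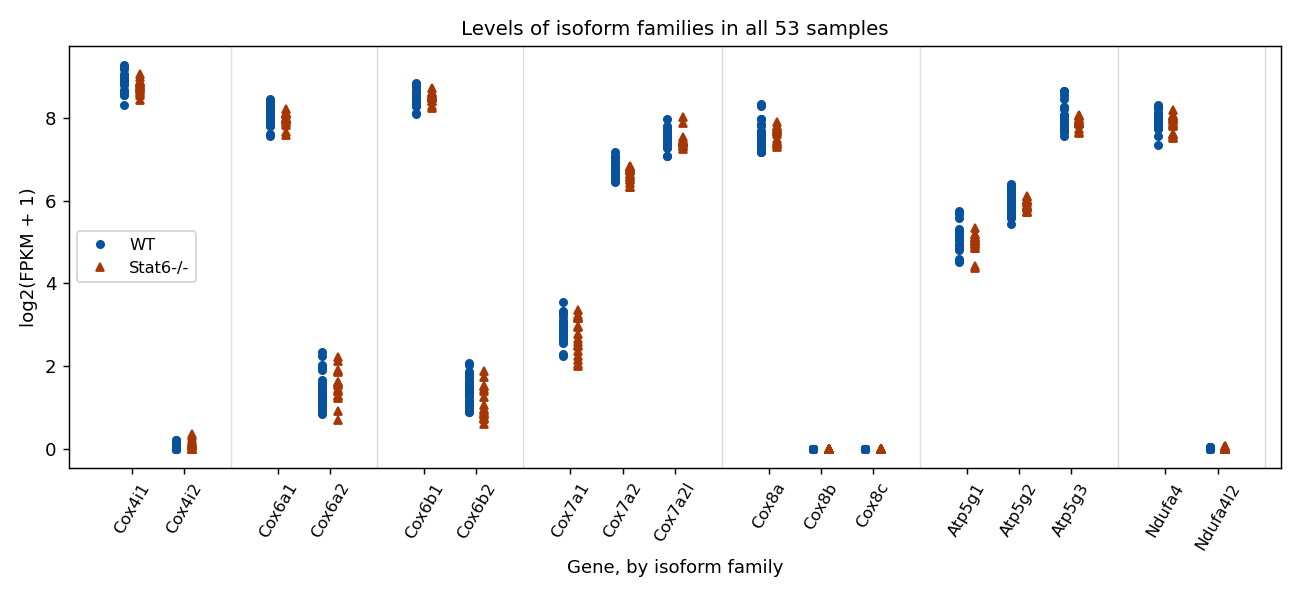
Levels of isoform families as log2(FPKM + 1) (y axis) for each gene (x axis), with 1 point per sample, blue circles for the 35 WT and brown triangles for the 18 Stat6-/- samples. Cox4i1 and Ndufa4 lie far above Cox4i2 and Ndufa4l2, and Cox8b and Cox8c lie at 0.

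The response changed shape between 6 and 24 h for 10 members, as tested by the difference of the 2 IL-4 responses. The difference was positive for 5, of which Cox7b (0.69), Atp5g1 (0.63) and Sdhc (0.47) were the largest and Atp5g3 (0.35) and Atp5b (0.35) followed. It was negative for the other 5, Cox7a2l (-0.57), Atp5sl (-0.54), Ndufc2 (-0.50), Ndufb9 (-0.42) and Ndufb3 (-0.36). Over all loci 11% were positive and 16.8% negative in this test. Ndufc2, a membrane-arm subunit of complex I, had risen at 6 h, with 90.2, 86.1, 91.6 and 97.4 FPKM against 68.0, 65.9, 74.6 and 75.0 FPKM, and its 24 h change of -0.14 did not pass. The count of 10 dropped to 5 without WT replicate 2 and to 3 without WT replicate 3.

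**Figure D5:**
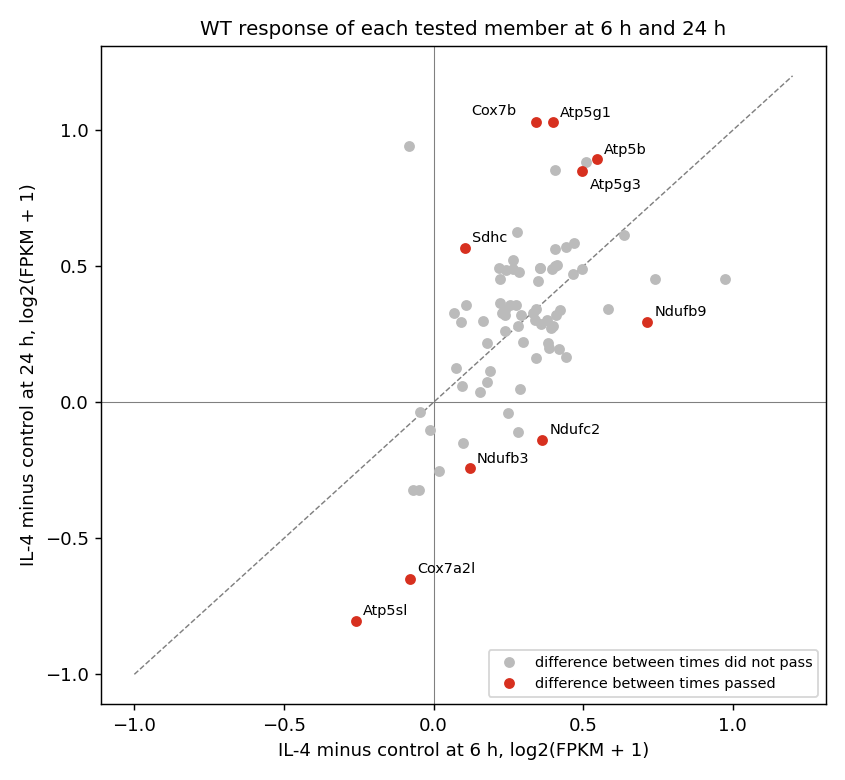
IL-4 minus control in WT at 6 h (x axis) and at 24 h (y axis), in log2(FPKM + 1), with 1 point per tested member and a dashed line of equal change. The 10 named red points are members whose responses at the 2 times differed at an adjusted p under 0.05, with Cox7b and Atp5g1 high above the line and Cox7a2l and Atp5sl below it.

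Whether these changes need STAT6 was addressed by the same comparison in Stat6-/- BMDMs. At 1, 3, 6 and 24 h, 0 of 79 members passed in limma, as did 0%, 0%, 0% and 0% of all loci, and 0 members passed by Tukey's adjustment. At an unadjusted p under 0.05 there were 0, 1, 1 and 0 members, and 1 when the 4 times were averaged. Median changes of the members were -0.02, 0.05, -0.01 and -0.02. With 2 samples a group the standard error of a member's change had a median of 0.149, against 0.114 in WT at 24 h. Atp5b read 283 and 211 FPKM with 24 h of IL-4 and 282 and 211 FPKM without, a change of 0.00 with a 95% interval of -0.23 to 0.24. Atp5g1 read 33.1 and 20.4 FPKM against 31.8 and 19.7 FPKM (0.05, interval -0.32 to 0.43).

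The difference between the genotypes' responses was tested directly. At 24 h the WT response was higher for 21 members and lower for 2 (12.2% and 14.8% of all loci), and at 6 h higher for 16 and lower for 0 (9.29% and 7.19%). Of the 21 and the 16, 9 were higher at both times. A fit of only the groups compared gave 11 and 0 at 24 h. By complex, the 24 h increases were 6 in complex I, 2 in II, 2 in III, 5 in IV and 6 in V, and the 6 h increases 7, 0, 2, 5 and 2. Of those that passed at 24 h the largest were Atp5g1 (0.98 ± 0.23, SE, adjusted p = 0.00157), Ndufa12 (0.96 ± 0.31, adjusted p = 0.0195) and Cox7b (0.95 ± 0.18, adjusted p = 0.00015), and the decreases were Atp5sl (-0.84 ± 0.19) and Cox7a2l (-0.62 ± 0.19).

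Of those that passed at 6 h the largest were Cox5b (0.77 ± 0.24, SE, adjusted p = 0.0235) and Cox5a (0.74 ± 0.13, adjusted p = 5.67e-05). Cox5a read 147 and 159 FPKM in Stat6-/- BMDMs with 6 h of IL-4 and 147 and 157 FPKM without. At 3 h 0 members passed in limma (6.98% of all loci higher, 4.22% lower), with 3 at an unadjusted p under 0.05 and 2 passing without Stat6-/- replicate 2, and at 1 h 0 passed (2.21% higher, 1.15% lower), with 0 unadjusted. The 6 h count of 16 fell to 10 without WT replicate 1, to 8 without WT replicate 3 and to 10 without Stat6-/- replicate 1, and the call for Cox5b was lost without WT replicate 1 or 3 or Stat6-/- replicate 2. At 24 h the call for Cox7a2l was lost without Stat6-/- replicate 1, which left 1 decrease, and that for Ndufa12 without WT replicate 3 or either Stat6-/- replicate.

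Without IL-4 the genotypes were close. Averaged over the 5 control times, with every control counted as a separate sample, 5 members were higher and 4 lower in Stat6-/- BMDMs. Over all loci 8.03% were higher and 13.3% lower. Taken at single times, 1 member passed in limma at 0 h, upward, beside 75 of 11146 loci higher and 168 lower. At 1, 3, 6 and 24 h 0 members passed, beside 49, 17, 11 and 4 higher loci and 123, 69, 35 and 8 lower. The paper describes the WT time course as data from individual animals. Controls of different times can therefore be repeated samples of the same animals, though the labels do not tie samples to animals. The averaged comparison takes all controls as independent, so its standard errors and adjusted p-values can be too small. Its 9 calls describe these samples and do not establish a difference between the genotypes. Cox5a had a median of 161.6 FPKM over 10 Stat6-/- controls and 143 FPKM over 20 WT controls (0.21 ± 0.04, SE, adjusted p = 0.000267), with overlapping ranges. Ndufc2 (0.27), Cox6a2 (0.33), Cox8a (0.21) and Ndufs4 (0.13) were the others that were higher, and Cox6b2 (-0.36), Cox7a2l (-0.17) and Ndufb11 (-0.14) were among the lower ones. The count of 9 was 3 without WT replicate 3 and 17 without Stat6-/- replicate 1. Cox6b2, Cox8a, Ndufb11 and Ndufs4 each lost their call without Stat6-/- replicate 2, and Cox7a2l without Stat6-/- replicate 1.

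Controls were also compared over time. Between 0 and 24 h in WT controls 0 rose and 2 fell, Uqcrq (-0.52 ± 0.17, SE, adjusted p = 0.0302) and Sdhc (-0.29 ± 0.08, adjusted p = 0.0125), against 5.67% and 11.6% of all loci. Without WT replicate 1, 2 or 4 the count was 0, without WT replicate 3 it was 1, and without either Stat6-/- replicate it was 7. Sdhc lay lower in 24 h controls than at 0 h, at a mean of 95.3 against 116.8 FPKM. The members' median change was -0.10, against -0.04 over all loci. At an unadjusted p under 0.05 in limma, 3 members were higher and 11 lower, beside 3471 of 11146 loci in either direction. Without passing, Atp5g1 had a mean of 25.0 FPKM in 24 h controls and 32.2 FPKM at 0 h, and Cox7b of 43.6 and 51.1 FPKM.

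Other mitochondrial genes were counted in the same way, to be read beside the 23.4% of all loci that rose and the 31.6% that fell at 24 h. Of 42 assembly factors, which build the complexes, 20 rose and 3 fell at 24 h, with a median change of 0.19. Ndufaf4, for complex I, rose by 0.65 (adjusted p = 2.14e-07), and Tmem126b, also for complex I, by 0.82 (adjusted p = 5.79e-12), while Surf1, for complex IV, fell by 0.63 on the log2 scale. Of 7 electron carriers and related genes 4 rose. Cytochrome c (Cycs) went from 9.44 ± 0.74 FPKM in controls to 19.4 ± 1.43 FPKM (n = 4 and 3), a change of 0.97 (adjusted p = 0.000156), and Atpif1, the inhibitor of the ATP synthase, did not pass.

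Of 16 genes of the citric acid cycle and pyruvate dehydrogenase, 10 rose and 1 fell at 24 h, with a median change of 0.30. Idh3a, of the isocitrate dehydrogenase, rose from 10.1 to 25.5 FPKM (1.26 ± 0.09, SE, adjusted p = 7.53e-14), and Suclg2, of a succinyl-CoA ligase, fell by 0.88 on the log2 scale. Fumarase (Fh1) rose early, by 1.22 at 3 h (adjusted p = 2.78e-08), and stood at -0.04 at 24 h. Of 76 mitochondrial ribosomal proteins 45 rose and 4 fell (median 0.27), and of 95 tested cytosolic ribosomal proteins 10 rose and 6 fell (median 0.03, and 0.20 at 6 h). In Stat6-/- BMDMs 0 genes of these lists passed at 24 h in limma.

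Of 14 tested regulators of mitochondrial gene expression, 4 rose and 2 fell at 24 h, so the count of increases was close to the 23.4% of all loci. Ppargc1b, a coactivator of mitochondrial genes, rose by 1.64 at 3 h, 1.32 at 6 h and 1.13 at 24 h, from 0.455 ± 0.105 to 2.19 ± 0.293 FPKM at the last time (n = 4 and 3). The related Pprc1 rose by 0.53, 0.61 and 0.80, and Esrra, a nuclear receptor that such coactivators serve, by 0.32 and 0.48 at 3 and 6 h. Ppargc1a was at or below 0.02 FPKM in every sample, and Nrf1, Gabpa and Tfam did not pass at 3, 6 or 24 h.

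Markers of cell identity and division also moved in WT BMDMs at 24 h of IL-4. Of 6 tested macrophage markers, 4 were lower, Emr1 (-1.204), Csf1r (-0.61), Mertk (-1.89) and Fcgr1 (-2.34), and their summed level was 2604 to 2626 FPKM against 3274 to 3773 FPKM in controls. Of 4 cycling markers, Top2a (-1.03), Mki67 (-1.07) and Ccnb1 (-0.90) were lower, with sums of 15.3 to 27.2 against 24.5 to 48.8 FPKM. The granulocyte marker S100a8 went from 222 to 96.0 FPKM (adjusted p = 5.68e-06), 1 of 3 tested markers of that list, with sums of 88.2 to 119 against 197 to 263 FPKM. At 6 h, 2 macrophage markers and 0 of the other lists were lower. Over all loci tested, 31.6% were lower at 24 h and 19.2% at 6 h. The part of these shifts in the members' changes was not tested.

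Related sequences elsewhere in the genome could have taken or lent reads. By exact matches of 50 bases to other annotated transcripts, 38 of the 84 members shared nothing and 24 shared at least 10% of their transcript sequence, most of all Atp5l at 84.8%. Among the 55 tested members below 10%, 38 rose and 3 fell at 24 h (median 0.33), and among the 24 above, 12 rose and 1 fell (median 0.32). Unannotated copies were not looked for.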

How the data were processed

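Poly(A)-selected RNA of 53 BMDM samples was sequenced as paired reads of a TruSeq library, which was not described as stranded. The authors mapped the reads to mm10 with TopHat2 2.0.7, computed FPKM with Cufflinks 2.0.2 (versions per the submitters' processing notes) and deposited 1 FPKM table per sample. The annotation they used is not given in the sources used here. FPKM values are not counts, and the absolute depth behind them is unknown. Relative depth was taken from the most common ratio between samples over low loci.

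The tables were joined on locus and name, and 0 columns of other samples were used. Loci that reached 1 FPKM in any sample, the study's own threshold, were fitted as log2(FPKM + 1) in limma 3.58.1 (R 4.3.3) with a mean per group over all 53 samples, an intensity trend and 35 residual degrees of freedom. P-values are two-sided and were adjusted by Benjamini-Hochberg over the 11146 loci of a contrast, and a member passed at an adjusted p under 0.05. The study's further threshold of a 2-fold change was counted beside it. The contrasts were IL-4 against control of the same time, WT against Stat6-/- responses, 24 h against 6 h responses, Stat6-/- against WT controls and 24 h against 0 h controls. These share control samples. Intervals are 95%. The fit was tested on simulated data. Alternatives were a pseudocount of 0.1, no filter or one of 5 FPKM, quantile scaling, rescaling without the 10 most abundant loci, a fit of only the groups compared, an analysis of variance with Tukey's adjustment, a replicate block and leaving out each replicate.

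Named members were, per WT time, the 3 largest increases and decreases that passed without overlap of the samples, the 2 largest genotype differences in each direction, the highest and lowest gene of each complex, isoform families, core subunits, members past a 2-fold change, and the 5 largest control differences in each direction. From the other lists, genes past a 2-fold change were named. Members not reached by this rule, among them Atp5l, Cox7b2, Cox8c, Ndufb2, Ndufb3, Ndufb8 and Uqcrq, and BC002163, Itgad, Cd68, Csf1r, Ccnb1, Cycs, Atpif1, Suclg2, Surf1, Ndufaf4, Tmem126b, Pprc1, Esrra, Ppargc1a, Nrf1, Gabpa and Tfam, were named after their values were seen. The values of 1 member are not reported here. The members and lists were chosen with earlier results of these data known. Of the 84 members, 81 matched RefSeq by symbol and 3 by a synonym. GENCODE transcripts of the same build gave the shared sequence.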

Additional observations from a re-analysis of the deposited data

Results flagged for a closer look

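Over 11 named members and the sums of the 5 complexes, 80 sets of 4 WT samples at 3, 6 and 24 h were looked at, and 6 held a sample far from the others. Chance gives about 1 in 20 groups. The sum of complex V was 1977 FPKM in 3 h control replicate 2 (others 1914 to 1924) and 2859 FPKM in 6 h IL-4 replicate 4 (others 2297 to 2323). In 3 h IL-4 replicate 2, Cox5a was at 170 FPKM (others 184.5 to 185.1), Atp5g1 at 29.39 FPKM (others 35.19 to 35.64) and the sum of complex IV at 2022 FPKM (others 2272 to 2317). Cox7b was at 47.3 FPKM in 24 h control replicate 4 (others 41.99 to 42.5).

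The response to IL-4 was also compared between genotypes in limma for these 11 members. Several were named for the size of this same difference, so the values below describe them and their number is no result. At 6 h the WT response was larger by 0.768 on the log2 scale for Cox5b (adjusted p = 0.0235), 0.735 for Cox5a (adjusted p = 5.67e-05), 0.718 for Cox6a2 (adjusted p = 0.0369), 0.7 for Ndufb9 (adjusted p = 0.000436) and 0.51 for Atp5b (adjusted p = 0.00837). At 24 h it was larger by 0.976 for Atp5g1 (adjusted p = 0.00157), 0.958 for Ndufa12 (adjusted p = 0.0195), 0.949 for Cox7b (adjusted p = 0.00015), 0.892 for Atp5b (adjusted p = 1.14e-05) and 0.494 for Cox5a (adjusted p = 0.00546). The difference was -0.841 for Atp5sl (adjusted p = 0.000784) and -0.615 for Cox7a2l (adjusted p = 0.0123).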

How the results depend on the processing

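No direction was reversed under any alternative. Of the checks of named members, 1228 stayed on their side of the threshold, 99 lost a call and 10 gained one. Of the checks of counts and levels 270 stayed within their limits and 57 moved. Members called in Stat6-/- BMDMs numbered 0 under every alternative. With Tukey's adjustment the WT increases were 4 at 3 h, 24 at 6 h and 31 at 24 h, and the 6 h decrease was lost (0). Quantile scaling gave 4 increases and 2 decreases at 3 h, 1 decrease at 1 h, 2 higher genotype differences at 3 h and 6 changes over control time. It moved the upward share of all calls from 45% to 56.6% for the 24 h genotype difference and from 39.7% to 53.3% for 24 h against 6 h. Rescaling without the 10 most abundant loci gave 1 decrease at 3 h, 2 genotype differences at 3 h and 4 changes over control time. Fitting only the groups compared gave 14 increases and 2 decreases at 3 h, 11 higher and 0 lower genotype differences at 24 h and 5 differences between controls. Without a filter the 6 h decrease was lost (0) and 1 lower genotype difference appeared at 6 h.

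Leaving out 1 replicate at a time gave 0 to 1 decreases at 1, 3 and 6 h, 4 to 11 increases at 3 h, 32 to 45 at 6 h and 36 to 50 at 24 h. Higher genotype differences ranged over 0 to 2 at 3 h, 8 to 15 at 6 h and 14 to 24 at 24 h, and lower ones over 1 to 2 at 24 h. Differences between controls ranged over 3 to 17, changes over control time over 0 to 7, and differences between 6 h and 24 h over 3 to 13. The median FPKM of a complex in place of its sum gave 24 h log2 ratios of 0.342 for I, 0.427 for II, 0.317 for III, 0.767 for IV, 0.355 for V and 0.277 for all, so complex V was not the highest by that measure. The list behind the median for IV includes 8 isoforms restricted to other tissues, low or at 0. As a share of FPKM, II was at 0.292.

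Deviations from the group means of same-numbered samples correlated above 0.1 in 13 of 15 WT pairs (r from 0.0265 to 0.561). They did so in 8 of 8 Stat6-/- pairs (r from 0.791 to 0.900). With 2 samples a group the deviations mirror each other, so both samples give the same r, while its sign is not fixed by this. The labels do not say that numbers are animals, so the pairing was not taken as given. With the replicate block, 1 member fell at 1 h and 1 at 3 h, higher genotype differences numbered 3 at 3 h, 25 at 6 h and 33 at 24 h, and 11 members changed over control time. The comparison of genotypes in controls had no such fit, since numbers lie within genotypes. Absolute depth is unknown, so limits of detection for low isoforms cannot be given.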
